A study of Mus musculus with 6 samples.

Results

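The genes described here are 33 integrin chains, adhesion molecules and integrin activators, taken by gene symbol from a table of 21825 genes measured in cultured mouse lung ILC2s. ILC2s (group 2 innate lymphoid cells) are resident lymphocytes of barrier tissues that respond to IL-33 with type 2 cytokines. All 33 symbols had a row in the table. All cells were lung ILC2s sorted from BALB/c mice aged 6 weeks after 3 intraperitoneal injections of 1 µg recombinant mouse IL-33. Every culture then received IL-2 and IL-7, each at 10 ng/mL, for 48 h. The 3 TNFa libraries had recombinant mouse TNFa at 40 ng/mL in addition, and the 3 PBS libraries had the PBS control. The labels number the PBS libraries 1 to 3 and the TNFa libraries 4 to 6, and mark PBS replicate 2 as a repeat. They do not say whether libraries came from separate animals, pools or cultures, so p-values here reflect library-to-library spread only, which may be technical.

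Integrins are surface receptors made of 1 alpha and 1 beta chain, and the pairing of chains sets the ligand. Lymphocytes keep them in a low-affinity state until Rap1 GTPases recruit talin and kindlin to the beta chain tail, which opens the receptor and ties it to actin. Itgal with Itgb2 forms LFA-1, which binds ICAMs and is used by leukocytes to enter tissue. Itga4 with Itgb1 or Itgb7 binds VCAM-1, fibronectin or MAdCAM-1, Itgae with Itgb7 binds E-cadherin on epithelium, and Itgav with Itgb3 binds vitronectin and other matrix proteins.

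The libraries held 25089330 to 32486839 counts. TNFa replicate 5 stood apart from the rest, with a score of 90.4 on the first principal component, against -22.6 to -14.5 for the remaining 5; that component held 35.6% of the variance. All 14 ILC2 markers examined were present, with a summed level of 9799 to 10970 CPM (counts scaled to library size, with TMM factors) with PBS and 10320 to 11290 CPM with TNFa, although Thy1 stayed between 2.32 and 4.52 CPM. More than any other marker, Il5 set these sums (4009 to 4840 CPM with PBS and 5237 to 5796 CPM with TNFa). Of the 14, 9 had lower means with TNFa, and Gata3, Rora, Il1rl1, Klrg1, Icos, Arg1 and Il17rb were lower without overlap, while Il5 and Areg were higher without overlap. Icos, a costimulatory receptor of ILC2s, was called lower (log2 fold change -0.78 ± 0.10, edgeR adjusted p = 0.036), and Gata3, the master regulator of ILC2s, had a log2 fold change of -0.47 ± 0.10 (edgeR adjusted p = 0.20). Mast cell and basophil markers, 11 of 11 listed, had sums of 1339 to 1475 CPM with PBS and 1382 to 1567 CPM with TNFa. The largest were Tpsab1 (633 to 822 CPM over the 6 libraries), Cma1 (198 to 251 CPM), Tpsb2 (181 to 234 CPM) and Cpa3 (110 to 143 CPM). The lowest was Mrgprb2, at 0 in PBS replicates 2 and 3 and TNFa replicate 5, and at 0.818 CPM or less elsewhere. T cell markers, 11 of 11 listed, had sums of 461 to 493 CPM with PBS and 389 to 443 CPM with TNFa, which did not overlap. Most of the sum was Trbc2 and Trbc1, and each of these overlapped between the groups. Of the 11 markers, 2 were lower without overlap (Trac and Foxp3), and by means 9 were lower and 2 higher. NK cell and ILC1 markers, 8 of 10 listed, summed to 40.4 to 70.1 CPM with PBS and 16.7 to 23.8 CPM with TNFa, most of it Gzma, while Klrb1c and Eomes stayed under 1 CPM and were at 0 in some libraries. Ncr1 went the other way without overlap, at 0.823 to 1.77 CPM with PBS and 2.17 to 3.71 CPM with TNFa. Dendritic cell markers, 6 of 7 listed, summed to 86.2 to 108 CPM with PBS and 117 to 136 CPM with TNFa, most of it Ccr7, with Flt3 and Siglech under 0.2 CPM throughout. Xcr1 went the other way without overlap, at 34.8 to 41.3 CPM with PBS and 22.4 to 26.3 CPM with TNFa. Myeloid markers, 12 of 13 listed, summed to 54.2 to 116.9 CPM with PBS and 43.4 to 67.8 CPM with TNFa, which overlapped. Of the 11 tested, 6 had higher and 5 lower means, and S100a9 alone was without overlap (lower). The part of these cells in the levels below was not tested.

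With TNFa, the integrin chains Itgb3, Itgb2, Itgb7, Itgal and Itga2, the selectin ligand Selplg, the scavenger receptor Stab2, Epcam, Cd2 and the talin gene Tln1 were lower in every TNFa library than in any PBS library. Icam1, Icam2 and Cd96 were higher in every TNFa library than in any PBS library. These 13 genes without overlap are 40.6% of the 32 tested, beside 15.2% of all 15719 tested genes. The 10 lower ones stand beside 8.35% of all genes and the 3 higher ones beside 6.85%. In these bulk libraries, fewer cells of a type and less RNA per cell cannot be told apart. None of the 32 passed edgeR's quasi-likelihood test at an adjusted p under 0.05 over all genes, where 0.102% of the tested genes did (14 higher and 2 lower). Their median log2 fold change was -0.08, beside 0.01 over all tested genes, with 17 lower and 15 higher means, where 49.4% and 50.6% of all tested genes were lower and higher. At an unadjusted p under 0.05 there were 9 lower and 2 higher, where 4.63% and 3.68% of all genes were lower and higher. DESeq2 called 5 of them, all lower (Epcam, Stab2, Itgb3, Itga2 and Selplg), where it called 0.822% of the genes to which it gave an adjusted p as lower. Without TNFa replicate 5, edgeR called 3, all lower (Stab2, Itgb3 and Epcam), beside 0.176% of the genes tested in that fit.

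**Figure D1:**
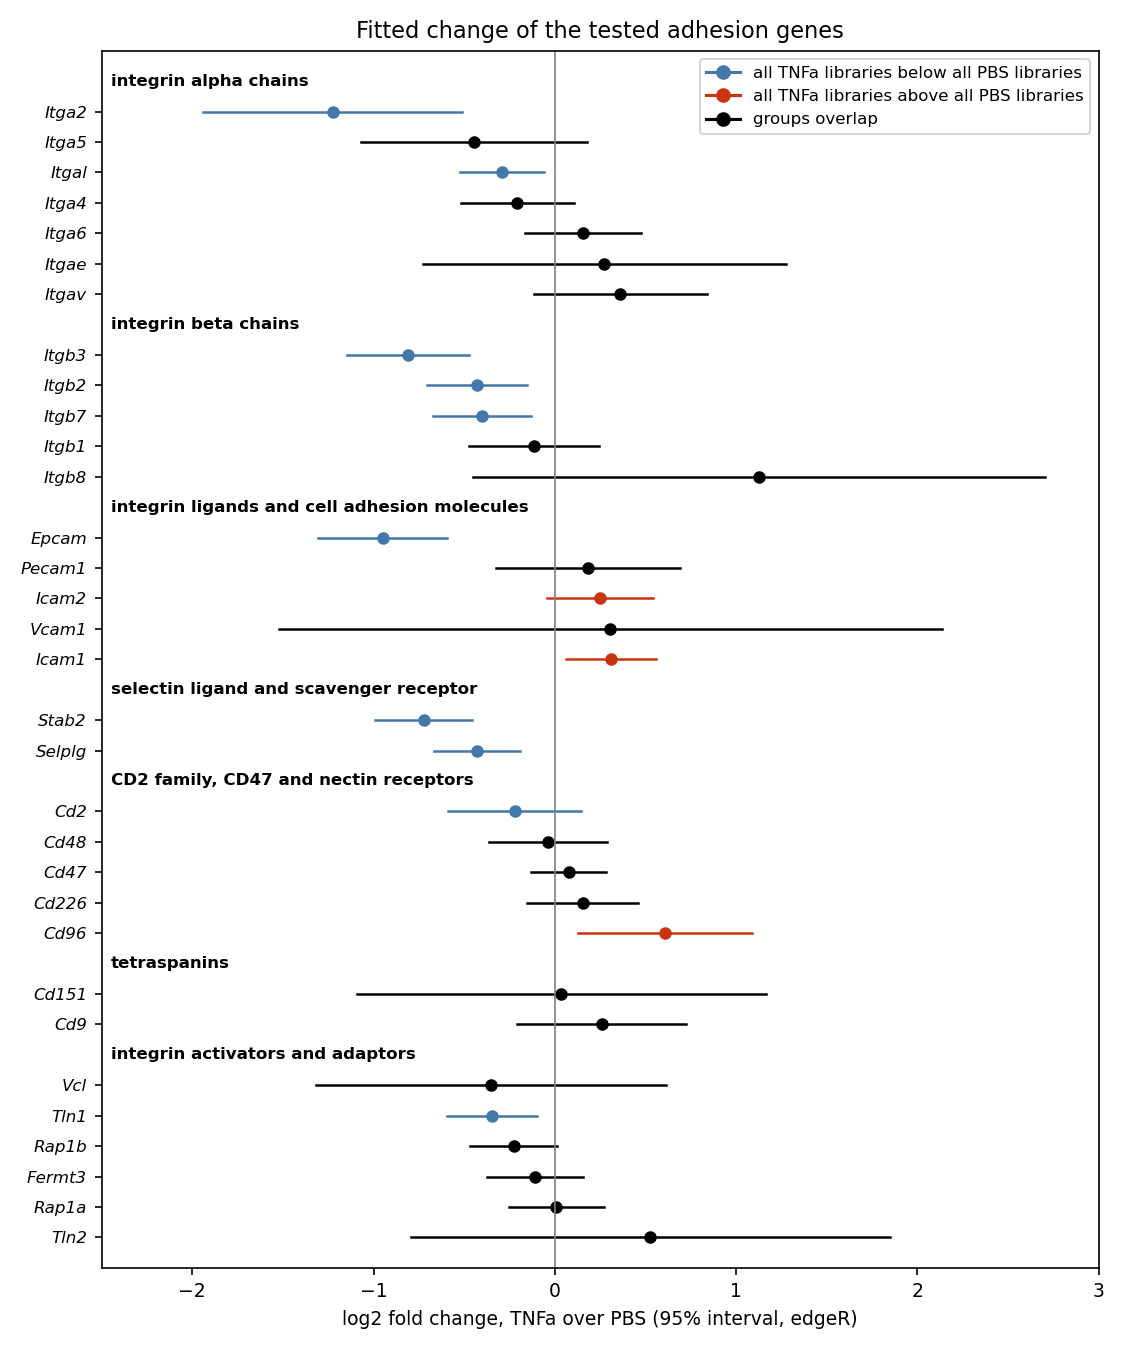
Each point is the fitted log2 fold change of TNFa over PBS for 1 of the 32 tested adhesion genes, grouped by role, with its 95% interval from edgeR (3 libraries per group). The 10 blue genes had every TNFa library below every PBS library, the 3 red genes the reverse, and black genes overlapped; no gene passed at an adjusted p under 0.05.

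The promoters of 4 genes without overlap between the groups are shown, 3 that were lower with TNFa and 1 that was higher. TNFa signals through NF-kB, and Icam1 is a textbook NF-kB target. The 4 are a selection from the genes without overlap, and a link between motif and direction was not tested. They come from RefSeq (GRCm38.p6, the build mm10), which held a promoter for 20 of the 33 genes, and each ends at the RefSeq start site or, for Stab2, at the GENCODE gene start 83 bases further out. For Cd47 and Itgb8 the RefSeq start lies 55121 and 526 bases inside the GENCODE gene, so their windows are not upstream of it. Both stay in the counts over the 20, where the Cd47 window has a GC box. Capitals mark matches to any of 7 motifs searched on both strands of the 250 bases before the start: the NF-kB consensus by name, an NF-kB palindrome GGAANTTCC, a GATA motif AGATAA, an ETS motif AGGAAG, a RUNX motif TGTGGT, an AP-1 motif TGANTCA and a GC box GGGCGG. The palindrome can overlap the consensus. The sequences are Icam1 at chr9:21015690-21015939 (plus strand), Epcam at chr17:87635729-87635978 (plus strand), Stab2 at chr10:87008026-87008192 (minus strand) and Itga2 at chr13:114932101-114932350 (minus strand).
Icam1: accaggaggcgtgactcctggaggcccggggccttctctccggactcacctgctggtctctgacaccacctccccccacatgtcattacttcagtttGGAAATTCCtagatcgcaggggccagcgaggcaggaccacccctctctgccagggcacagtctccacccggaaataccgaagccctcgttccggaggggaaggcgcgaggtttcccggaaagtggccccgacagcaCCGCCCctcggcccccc
Epcam: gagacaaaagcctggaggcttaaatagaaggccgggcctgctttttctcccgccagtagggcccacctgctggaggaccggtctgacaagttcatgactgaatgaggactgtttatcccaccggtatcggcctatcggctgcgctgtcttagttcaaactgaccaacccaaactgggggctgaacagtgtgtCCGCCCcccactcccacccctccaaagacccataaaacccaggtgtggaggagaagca
Stab2: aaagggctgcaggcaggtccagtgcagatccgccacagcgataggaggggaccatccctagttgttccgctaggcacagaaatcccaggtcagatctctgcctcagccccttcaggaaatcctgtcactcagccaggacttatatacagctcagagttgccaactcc
Itga2: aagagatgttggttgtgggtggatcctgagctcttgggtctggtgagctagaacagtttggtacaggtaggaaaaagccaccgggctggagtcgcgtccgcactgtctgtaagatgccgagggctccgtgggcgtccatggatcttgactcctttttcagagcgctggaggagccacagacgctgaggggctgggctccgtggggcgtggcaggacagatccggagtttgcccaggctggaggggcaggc
In Icam1 the capitals are the palindrome, 153 to 145 bases before the start, and a GC box, 17 to 12 bases before it. The palindrome was found in 0.813% of all 32851 promoter windows of this length and in 1 of the 20 adhesion gene promoters, that of Icam1. The consensus was found in 7.25% of all windows and in 1 of the 20, that of Vcl. The promoter of Cd96, also higher without overlap, is not printed. Of the 7 motifs it has only RUNX, 28 to 23 bases before the start, and neither NF-kB motif. Epcam has a GC box, a motif in 32.7% of all windows and in 10 of the 20. Stab2 has an ETS and a RUNX motif only within the 83 bases that are not printed (29.5% and 14.0% of all windows, 6 and 5 of the 20), and Itga2 has none of the 7. The promoters of Itgb7 and Tln1, also lower without overlap, are not printed. Itgb7 has only an ETS motif, 141 to 136 bases before the start, and Tln1 has none of the 7. The GATA motif (9.99% of all windows) and the AP-1 motif (6.75%) were in 0 of the 20.

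Among the 5 integrin beta chains, Itgb3, Itgb2 and Itgb7 were lower in all TNFa libraries, and Itgb1 and Itgb8 overlapped. Itgb3, the beta chain of the vitronectin receptor (mm10, chr11:104608000-104670476, plus strand), had 357, 416 and 403 CPM in PBS replicates 1 to 3 and 224, 176 and 270 CPM in TNFa replicates 4 to 6. The highest TNFa library stood well below the lowest PBS library. The fold of TNFa over PBS was 0.570 (95% interval 0.451 to 0.720), a log2 fold change of -0.81 ± 0.15 (SE), which missed the threshold in edgeR (adjusted p = 0.11). It passed without TNFa replicate 5, at a log2 fold change of -0.67 (adjusted p = 0.027), and in DESeq2 (adjusted p = 0.00058).

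Itgb7, the partner of both Itga4 and Itgae, had 647, 659 and 576 CPM with PBS and 492, 404 and 531 CPM with TNFa. Its log2 fold change was -0.40 ± 0.12 (edgeR adjusted p = 0.39). Itgb2, the beta chain of all leukocyte beta-2 integrins, had 403, 429 and 401 CPM with PBS and 337, 253 and 327 CPM with TNFa. For both chains TNFa replicate 5 was the lowest library, and the other TNFa libraries were also below all PBS libraries. The change in Itgb2 was -0.43 ± 0.12 on the log2 scale (edgeR adjusted p = 0.36). Itgb1, the shared partner of many alpha chains, was at 124 ± 25.4 CPM with PBS and 114 ± 14.8 with TNFa (mean ± SD, n = 3 each), with PBS replicates 1 and 2 (100 and 151 CPM) further apart than any TNFa libraries. Itgb8, whose pair with Itgav activates latent TGF-beta, was near the floor, from 0.454 to 3.10 CPM in the 6 libraries, with overlapping groups.

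Of the 8 alpha chains, Itgal and Itga2 were lower without overlap. Itgal, the LFA-1 alpha chain, had 358, 382 and 369 CPM with PBS and 322, 268 and 316 CPM with TNFa, a log2 fold change of -0.29 ± 0.10 (edgeR adjusted p = 0.47). Its lowest library was again TNFa replicate 5. Itga2, the alpha chain of a collagen receptor and, as CD49b, a surface marker of NK cells, had 4.63, 7.55 and 8.33 CPM with PBS and 2.85, 2.95 and 2.96 CPM with TNFa. The TNFa libraries lay close together while the PBS libraries spread nearly as widely as the difference between groups. Its fold was 0.428 (95% interval 0.261 to 0.701, edgeR adjusted p = 0.30), and DESeq2 called it lower (adjusted p = 0.017).

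The remaining alpha chains overlapped between the groups. Itgav, the alpha chain shared by Itgb1, Itgb3 and Itgb8, had a higher mean with TNFa, 59.4 ± 12.9 against 46.2 ± 11.3 CPM, a log2 fold change of 0.36 ± 0.21 (edgeR adjusted p = 0.72). Itga6, a laminin receptor chain, was at 54.6 ± 4.96 CPM with PBS and 60.9 ± 8.80 with TNFa. The fibronectin receptor chain Itga5 was at 8.98 ± 1.22 and 6.59 ± 1.83 CPM. Itga4 was at 42.9 ± 4.42 and 37.1 ± 2.67 CPM; it overlaps Cerkl on the other strand, as Itgae overlaps Haspin, and the sources used here do not say whether counting used strand. Itgae, the CD103 chain, ranged from 2.52 to 10.3 CPM within PBS, which takes in all 3 TNFa libraries (6.23 to 8.37 CPM). Itga1, another collagen receptor chain, did not pass the filter on low counts: it had 4, 39 and 5 counts in the PBS libraries and 1, 8 and 5 in the TNFa libraries.

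**Figure D2:**
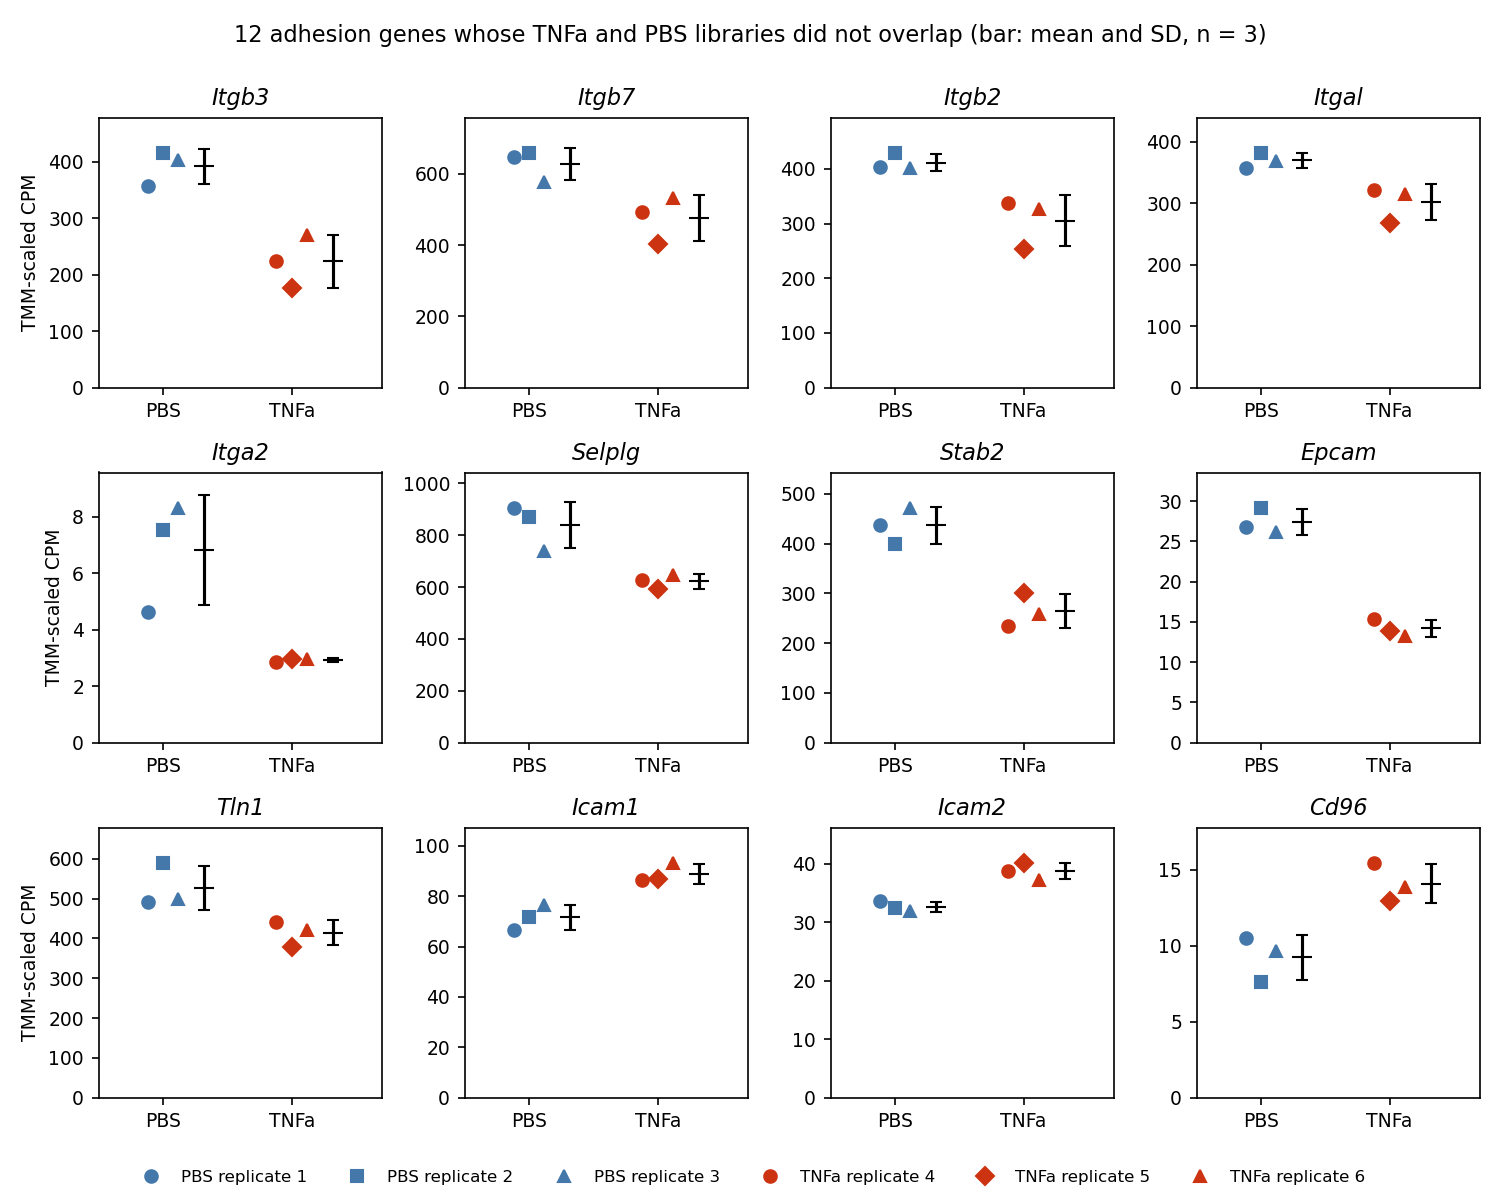
TMM-scaled CPM of 12 of the 13 adhesion genes without overlap, each panel with its own axis from 0; points are libraries and the black bar is the mean ± SD over 3 libraries. TNFa replicate 5 (diamond) was the lowest library for Itgb3, Itgb7, Itgb2, Itgal, Selplg and Tln1 but the highest TNFa library for Stab2 and Icam2.

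To order the chains, counts were divided by transcript length and expressed as TPM, a length-corrected level scaled to the same sum in each library. With PBS the alpha chains ran Itgal (118 ± 7.62 TPM), Itgav (21.7 ± 6.16), Itga6 (20.0 ± 1.59), Itga4 (6.33 ± 0.72), Itga5 (2.94 ± 0.29), Itga2 (2.62 ± 0.84), Itgae (2.23 ± 1.52) and Itga1 (0.071 ± 0.090). Itgav and Itga6 did not differ beyond their spread, nor did Itga5, Itga2 and Itgae. Itgal made up 68.0% ± 1.79 of the summed alpha chain level with PBS and 61.2% ± 1.40 with TNFa, and Itgav 12.3% ± 2.56 and 17.4% ± 1.96. The beta chains ran Itgb7 (926 ± 45.8 TPM), Itgb2 (449 ± 25.5), Itgb3 (97.8 ± 11.1), Itgb1 (79.1 ± 17.7) and Itgb8 (0.157 ± 0.090) with PBS. Itgb3 was above Itgb1 in all 3 PBS libraries, although the ranges of both chains overlapped, and with TNFa Itgb1 had the higher mean of the pair, 72.1 ± 14.1 against 55.2 ± 14.99 TPM. The lengths are means over annotated protein coding transcripts, some of them short. With the longest transcript, Itga6 came before Itgav in both groups, Itgae before Itga2 with PBS, and Itgb3 before Itgb1 with TNFa as well. These levels are a description and were not tested.

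**Figure D3:**
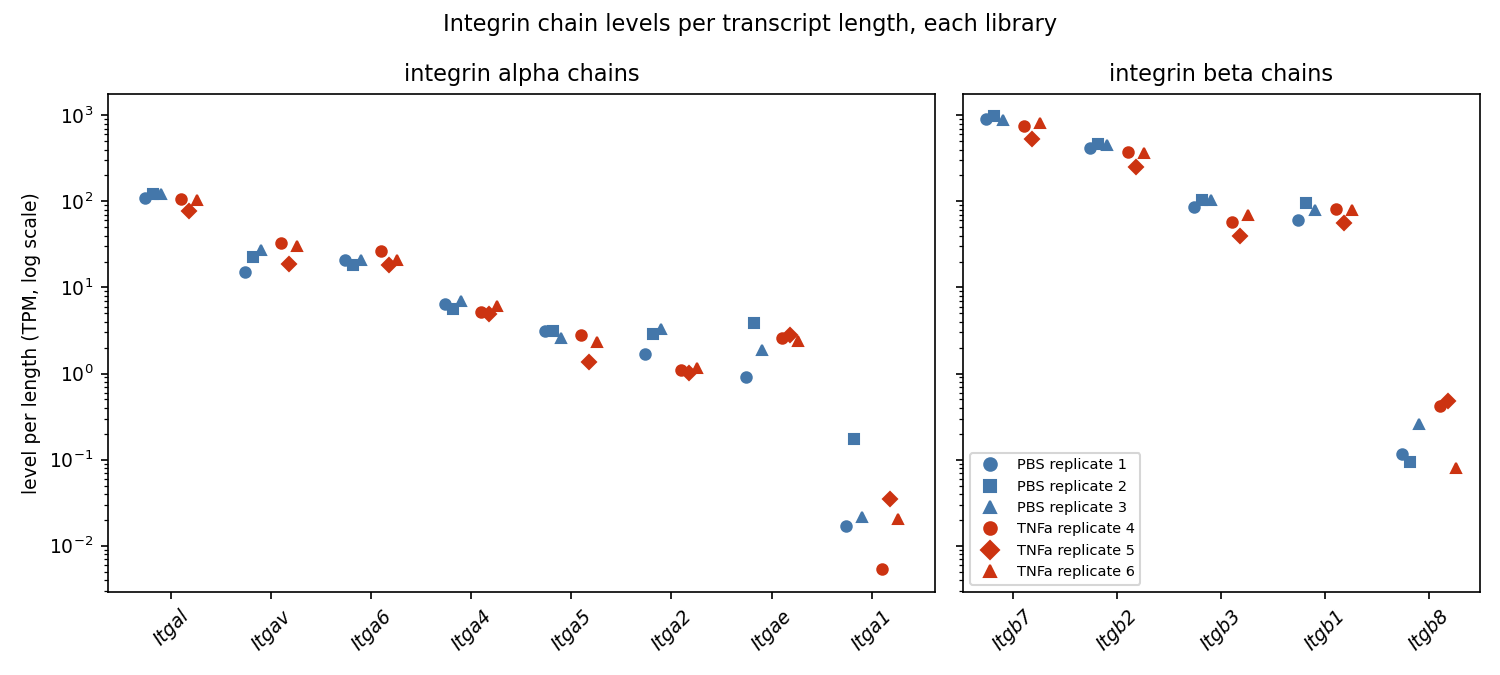
Level per transcript length (TPM, log axis) of the 8 alpha and 5 beta chains in each of the 6 libraries, ordered by the PBS mean. Itgal and Itgb7 were the highest chain of their kind in both groups, and Itga1 and Itgb8 the lowest.

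Within 9 known pairs, the ratio of beta chain to alpha chain counts was compared library by library, a comparison added after the values were seen. For Itgb3 over Itgav it was 10.5, 8.62 and 7.14 with PBS and 3.22, 3.93 and 4.24 with TNFa. Every TNFa library was below every PBS library, since the Itgb3 counts were lower and the Itgav mean higher. For Itgb1 over Itga2 the ratio was 21.7, 20.0 and 14.5 with PBS and 44.3, 33.1 and 40.2 with TNFa, the other direction. The LFA-1 pair, Itgb2 over Itgal, stayed near 1 count per count, at 1.11 ± 0.02 with PBS and 1.01 ± 0.06 with TNFa, also without overlap. The other 6 pairs overlapped. Each of the 3 ratios without overlap includes a chain that was itself without overlap, and no share over ratios of other genes was computed. Itgb7 over Itgae was the widest, from 63.7 to 257 within PBS alone.

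**Figure D4:**
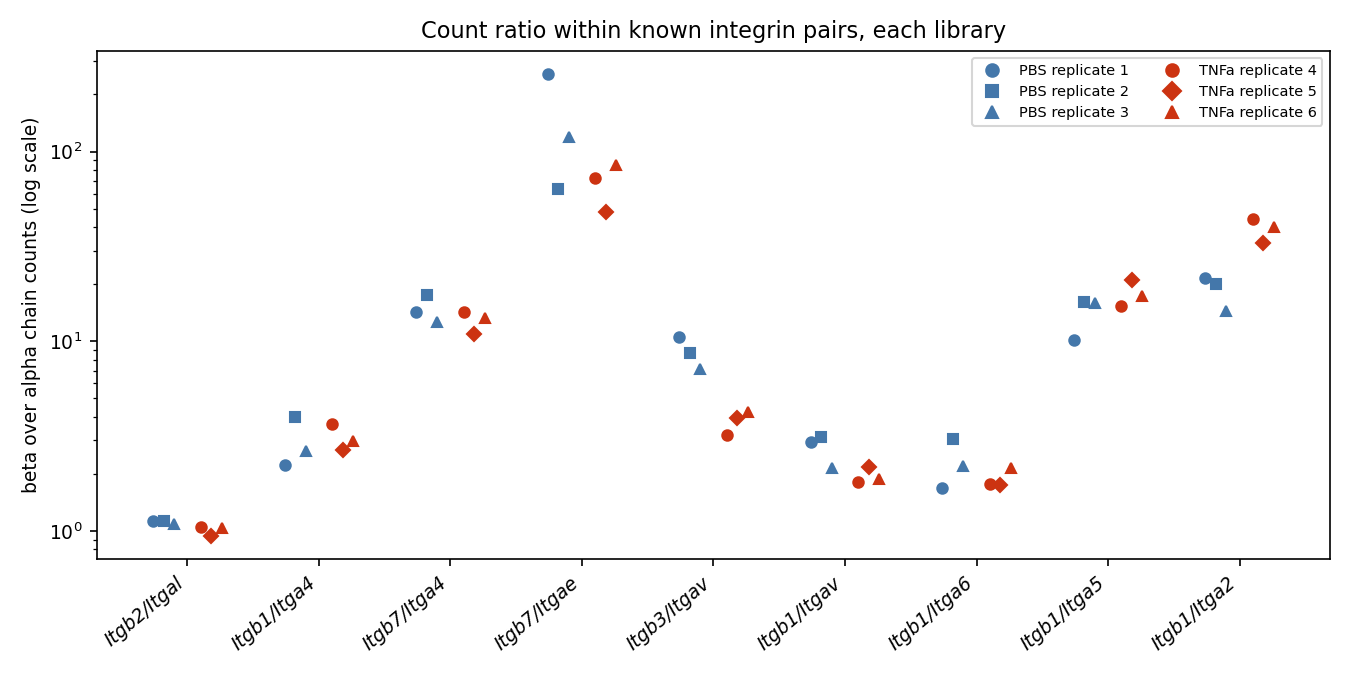
Counts of the beta chain over counts of the alpha chain (log axis) in each library for 9 known integrin pairs. Itgb3 over Itgav and Itgb2 over Itgal were lower, and Itgb1 over Itga2 higher, in all 3 TNFa libraries than in any PBS library. The counts are not corrected for length, so heights are compared between libraries and not between pairs.

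The adhesion ligands and cell adhesion molecules gave 2 genes higher and 1 lower without overlap. Icam1, the main LFA-1 ligand, had 66.7, 71.8 and 76.7 CPM with PBS and 86.3, 87.0 and 93.3 CPM with TNFa. The 3 TNFa libraries were all higher by a modest step, a fold of 1.24 (95% interval 1.04 to 1.47), which did not pass (log2 fold change 0.31 ± 0.11, edgeR adjusted p = 0.47). Icam2, a second LFA-1 ligand that is expressed without stimulation, had 33.6, 32.4 and 31.8 CPM with PBS and 38.8, 40.2 and 37.3 CPM with TNFa (log2 fold change 0.25 ± 0.13, edgeR adjusted p = 0.68). Vcam1, the ligand of Itga4 with Itgb1 and a known TNF target in endothelium, was from 0.272 to 1.62 CPM in all 6 libraries. The groups overlapped fully for Vcam1.

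Epcam, a homophilic adhesion molecule best known from epithelium, had 26.8, 29.2 and 26.2 CPM with PBS and 15.4, 13.9 and 13.3 CPM with TNFa. Both groups were tight and far apart, at a fold of 0.518 (95% interval 0.405 to 0.663). The log2 fold change was -0.95 ± 0.16 (edgeR adjusted p = 0.088), and Epcam passed without TNFa replicate 5 (adjusted p = 0.049) and in DESeq2 (adjusted p = 5.7e-07). Epithelial markers, 11 of 11 listed, had sums of 10.7 to 25.7 CPM in the PBS libraries and 25.8 to 106 CPM in the TNFa libraries, and the groups overlapped for all 7 that were tested. The higher TNFa sums were mostly Scgb1a1, at 81.0, 0.187 and 46.1 CPM in TNFa replicates 4 to 6, against 0.034, 6.09 and 8.07 CPM with PBS. Pecam1, a homophilic adhesion molecule of endothelium and leukocytes, was at 118, 79.3 and 86.6 CPM with PBS and 101, 145 and 76.7 CPM with TNFa. TNFa replicate 5 held its highest value, and the log2 fold change went from 0.18 to -0.10 without that library.

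Selplg and Stab2 were both lower without overlap. Selplg encodes PSGL-1, the P-selectin ligand on which leukocytes roll, and had 906, 870 and 739 CPM with PBS and 627, 591 and 648 CPM with TNFa. PBS replicate 3 lay nearest to the TNFa libraries. The log2 fold change was -0.43 ± 0.11 (edgeR adjusted p = 0.28; DESeq2 adjusted p = 0.034). Stab2 encodes stabilin-2, a receptor that takes up hyaluronan and is best known from sinusoidal endothelium. It had 438, 399 and 472 CPM with PBS and 234, 300 and 259 CPM with TNFa, a fold of 0.606 (95% interval 0.503 to 0.730). The lowest PBS library was above the highest TNFa library, which was replicate 5. The gene overlaps 5 genes that are not protein coding on the other strand (Gm16268 to Gm16271 and Gm16280). Its log2 fold change of -0.72 ± 0.12 missed the threshold in edgeR (adjusted p = 0.088). It was -0.83 without TNFa replicate 5 (adjusted p = 0.0055), and the gene also passed with a transcript length trend removed (edgeR adjusted p = 0.042, where 0.0702% of all genes tested were called lower) and in DESeq2 (adjusted p = 1.4e-05).

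Of 12 endothelial markers, Cdh5, Kdr, Emcn, Tek, Plvap, Lyve1 and Robo4 had no row in the table. The table holds no gene with a total under 10 counts. The other 5 summed to 8.64 to 11.1 CPM with PBS and 11.6 to 14.3 CPM with TNFa. Nearly all of that was Eng, at 7.62 to 9.91 CPM with PBS and 10.8 to 13.7 CPM with TNFa, higher without overlap. Platelet and megakaryocyte markers had 5 of 8 listed and summed to 2.98 to 7.02 CPM with PBS and 4.07 to 20.0 CPM with TNFa. Itga2b, the platelet partner of Itgb3, was from 0.579 to 2.27 CPM. The mast cell sums given above overlapped between the groups. Whether any of these cell types contributed to the Stab2, Itgb3 or Itga2 levels was not tested.

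Of the CD2 family, Cd47 and the nectin receptors, Cd96 was higher and Cd2 lower without overlap. Cd96, an inhibitory receptor for the poliovirus receptor Pvr, had 10.5, 7.59 and 9.62 CPM with PBS and 15.5, 12.9 and 13.8 CPM with TNFa. The TNFa libraries were all higher, a fold of 1.52 (95% interval 1.09 to 2.12) that did not pass (log2 fold change 0.61 ± 0.21, edgeR adjusted p = 0.46). Cd226, the activating receptor for the same ligand, was at 40.9 ± 3.40 CPM with PBS and 45.5 ± 4.01 with TNFa with overlap. Cd2 had 21.1, 22.0 and 22.6 CPM with PBS and 16.4, 20.3 and 19.7 CPM with TNFa. That is a narrow gap, with an interval of the log2 fold change from -0.59 to 0.15 (edgeR adjusted p = 0.77). Its mouse ligand Cd48 was at 124 ± 24.1 and 120 ± 7.01 CPM. Cd47, which signals to phagocytes through Sirpa and associates with Itgav and Itgb3, was at 447 ± 25.2 CPM with PBS and 471 ± 10.9 with TNFa, with an interval of the log2 fold change from -0.13 to 0.28.

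The tetraspanins Cd9 and Cd151, membrane organisers that bind integrins, overlapped between the groups. Cd9 was at 12.7 ± 2.41 CPM with PBS and 15.2 ± 1.497 with TNFa. Cd151 ranged from 0.860 to 2.81 CPM, both ends of which were TNFa libraries.

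Of the 6 activators and adaptors, Tln1 alone was separate between the groups. Tln1 encodes talin-1, which binds beta chain tails and actin, and had 491, 590 and 499 CPM with PBS and 441, 379 and 422 CPM with TNFa (log2 fold change -0.35 ± 0.11, edgeR adjusted p = 0.41). It overlaps Creb3 on the other strand, as Fermt3 overlaps Trpt1 and Vcl overlaps Ap3m1. Fermt3, the leukocyte kindlin, was at 497 ± 33.8 and 460 ± 59.7 CPM, and TNFa replicate 5 was its only library below all PBS libraries (391 CPM). Rap1b, a Rap1 GTPase, was at 923 ± 69.6 CPM with PBS and 789 ± 77.1 with TNFa (log2 fold change -0.23 ± 0.11, edgeR adjusted p = 0.63). Its close paralogue Rap1a was at 223 ± 23.9 and 224 ± 20.4 CPM, and reads shared by the pair could be divided wrongly. Tln2, the other talin, was low, from 0.884 to 5.37 CPM. Vcl, which reinforces the talin link to actin, was at 16.1, 23.7 and 26.4 CPM with PBS and 15.4, 6.69 and 29.7 CPM with TNFa. TNFa replicates 5 and 6 were its lowest and highest libraries.

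A wider set of 129 adhesion genes outside the 33 was read from the same fit. Of these, 120 had a row and 107 were tested; none passed in edgeR, with 17 lower and 2 higher at an unadjusted p under 0.05 (4.63% and 3.68% of all genes). DESeq2 called 5 lower (L1cam, Ptk2b, Rasgrp2, Sipa1 and Zyx), where it called 0.822% of its genes lower. It called 1 higher (Cd82), where it called 114 of its 17151 genes higher. The median log2 fold change was -0.15, beside 0.01 over all tested genes, and 69 had lower means. Groups did not overlap for 23 lower and 7 higher genes, beside 8.35% and 6.85% of all genes. The genes that signal to integrins from inside the cell had 19 of 25 lower means and a median of -0.26. Among them Sipa1, a GTPase-activating protein that turns Rap1 off, was at 141 ± 18.1 CPM with PBS and 97.4 ± 12.8 with TNFa (log2 fold change -0.54 ± 0.14, edgeR adjusted p = 0.29; DESeq2 adjusted p = 0.041). Skap1, an adaptor that helps bring Rap1 to the membrane, was at 679 ± 32.4 and 564 ± 17.1 CPM without overlap (edgeR adjusted p = 0.44). Rapgef1, an exchange factor that loads Rap1, was at 52.3 ± 3.59 and 59.8 ± 4.98 CPM (edgeR adjusted p = 0.74). Without overlap between the groups, Sipa1 was lower and Rapgef1 higher. Rasgrp2, another Rap1 exchange factor, which was named after its values were seen, had 2.35, 3.54 and 5.03 CPM with PBS and 1.03, 1.31 and 1.24 CPM with TNFa (edgeR adjusted p = 0.30; DESeq2 adjusted p = 0.025).

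The adhesion complex genes had 16 of 24 lower means and a median of -0.15. Zyx, which encodes the focal adhesion protein zyxin, was at 180 ± 12.4 CPM with PBS and 135 ± 8.57 with TNFa (edgeR adjusted p = 0.29; DESeq2 adjusted p = 0.032), and the paxillin relative Lpxn at 424 ± 31.2 and 521 ± 20.5 CPM (adjusted p = 0.42). Neither gene overlapped between the groups. Ptk2b, a focal adhesion kinase relative named after its values were seen, was at 259.6 ± 8.35 and 209 ± 4.10 CPM without overlap (edgeR adjusted p = 0.37; DESeq2 adjusted p = 0.037). The most abundant per length was Actn4, an actin crosslinker, at 606 ± 8.19 and 520 ± 102 CPM, lower without overlap and with TNFa replicate 5 lowest (404 CPM). Among 12 other tetraspanins 5 had higher means, and Cd82 had 361, 359 and 338 CPM with PBS and 496, 435 and 481 CPM with TNFa. Its log2 fold change of 0.42 ± 0.10 missed the threshold in edgeR (adjusted p = 0.23) and passed without TNFa replicate 5 (0.47, adjusted p = 0.036) and in DESeq2 (adjusted p = 0.0087). Tspan14 was at 89.8 ± 7.95 and 70.8 ± 7.95 CPM, lower without overlap. The pan-leukocyte Cd53 was at 1700 ± 191 and 1578 ± 156 CPM with overlap.

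Selectins and the enzymes that build selectin ligands had 9 of 14 lower means and a median of -0.10. St3gal6, a sialyltransferase that contributes to selectin ligands, was at 14.5 ± 0.42 CPM with PBS and 8.06 ± 2.36 with TNFa without overlap (edgeR adjusted p = 0.39). Cd44, the hyaluronan receptor, was the most abundant per length, at 296 ± 21.0 and 326 ± 22.9 CPM. In the other ligands and junction molecules 7 of 12 means were lower, and L1cam, a homophilic adhesion molecule known from neurons, had 17.6, 18.2 and 17.1 CPM with PBS and 10.2, 11.1 and 9.11 CPM with TNFa. Both groups of L1cam were tight (log2 fold change -0.80 ± 0.18, edgeR adjusted p = 0.23; DESeq2 adjusted p = 0.0010). Icam5 was from 0.680 to 1.69 CPM, higher with TNFa without overlap. Spp1, which encodes the integrin ligand osteopontin, was at 15.4 ± 3.66 and 12.8 ± 3.98 CPM with overlap. The other integrin chains were low, with Itga3 highest per length (2.12 TPM with PBS) at 5.40 ± 0.88 and 4.79 ± 0.02 CPM, while the integrin-binding protein gene Itgb1bp1 in the same list was at 73.3 ± 4.28 and 72.6 ± 11.2 CPM. In the CD2, SLAM and nectin families 6 of 13 means were lower. Cd84 was the most abundant per length (70.6 ± 9.16 and 65.0 ± 10.5 CPM), and Slamf1 was at 6.34 ± 1.51 and 5.10 ± 1.13 CPM. Nectin2 was from 0.285 to 1.36 CPM, higher with TNFa without overlap.

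TNFa replicate 5 was the lowest of the 6 libraries for 12 of the 32 tested genes, where each other library was lowest for 2 to 6. The same count over all tested genes was not computed. Since this library stood apart over all genes, the count is not a trait of the adhesion genes alone. With TNFa replicate 5 left out, 15 of the 32 had no overlap, 10 lower and 5 higher, beside 27.5% of all tested genes with those 5 libraries.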

How the data were processed

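RNA-seq was made from 10 ng of total RNA per library, per the labels' protocols. The authors deposited estimated counts per gene, which are not whole numbers and which the table's title ascribes to Partek's E/M quantification. The submitters' processing notes list CASAVA 1.8.2, STAR 3.5.3, Partek and mm10. No annotation release, strand setting or filter is given in the sources used here.

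Estimated counts were rounded and tested with edgeR 4.0.16 (R 4.3.3): filterByExpr (minimum count 10, minimum total 15), TMM, robust quasi-likelihood test, Benjamini-Hochberg over 15719 genes, threshold 0.05. The SE came from the fold change and its F statistic. CPM values are TMM-scaled. TPM used GENCODE M21 lengths (same build), found for 99.3% of genes. Alternatives were DESeq2 1.42.0, RLE scaling, other filters, protein coding genes, a length trend and each library left out. The fit was tested on simulated data. Counts limit precision for genes under a few CPM, and the spread of 3 libraries limits it elsewhere.

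The genes and lists were chosen with earlier results of these data known. The naming rule took all 33 genes and, of each wider list, every called gene, the lowest p in each direction and the most abundant per length. The pair ratios and the count of separate groups with a library left out were added after seeing the data.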

Additional observations from a re-analysis of the deposited data

How the results depend on the processing

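The count of called genes, 16, was 3 without the low-count filter, 25 at a mean of at least 5 CPM, 27 with the length trend removed, 255 with DESeq2 and from 1 to 67 with 1 library left out (67 without TNFa replicate 5, from 1 to 5 otherwise). Of the 33 adhesion genes, 1 was called with the length trend removed (Stab2), 5 with DESeq2 and from 0 to 3 with 1 library left out, the 3 without TNFa replicate 5. Of the wider adhesion genes, 6 were called with DESeq2 and from 0 to 1 with 1 library left out (Cd82, without TNFa replicate 5). Beside these calls, the shares of all genes called were 0.172% with the length trend removed, 1.49% with DESeq2 and 0.406% without TNFa replicate 5. The count of adhesion genes without overlap, 13, was 15 to 17 with 1 library left out, where the share over all genes went from 15.2% to between 21.8% and 27.5%. Over all 6 libraries Itgal made up 64.6% of the alpha chain level and Itgb7 60.0% of the beta chain level, or 68.6% and 50.2% with the longest transcript length. Of the 32 tested genes, 24 kept their direction under all 12 alternatives that gave them a value; the filter at 5 CPM left out 5 of the 32. The other 8 changed direction with a library left out, and their log2 fold changes then ranged from -0.090 to 0.95 for Itgae, -0.25 to 0.050 for Itgb1, -0.36 to 1.498 for Vcam1, -0.10 to 0.38 for Pecam1, -0.17 to 0.10 for Cd48, -0.45 to 0.36 for Cd151, -1.002 to 0.032 for Vcl and -0.071 to 0.092 for Rap1a. The cause was not tested. No paired analysis was possible because the groups share no replicate numbers. At these depths the genes with means under 2 CPM (Itga1, Itgb8, Vcam1 and Cd151) allow no firm comparison.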
